A study of Homo sapiens with 9 samples.

Results

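The cytosolic ribosomal protein genes are the genes of the protein subunits of the ribosomes that translate cytoplasmic mRNA. Members were chosen by symbol, as RPS or RPL followed by a number and at most 1 letter of A, X, Y or L, with or without a final digit, together with RPSA, RPLP0, RPLP1 and RPLP2. Of the 36601 genes in the tables, 86 matched, 34 with an RPS symbol and 52 with an RPL symbol. No level is given for the 2 members on the Y chromosome, and the other 84 all had at least 1 UMI (unique molecular identifier, a tag that counts an mRNA molecule once) in the cells compared.

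A ribosome has a small subunit, which binds the mRNA and reads its codons, and a large subunit, which joins the amino acids. Most of their proteins are made in fixed proportion from single-copy genes, and a pluripotent cell spends a large part of its mRNA on them. The mRNAs of many of them start with a pyrimidine tract, the TOP motif, through which their translation follows mTOR signalling, and transcription of ribosomal genes and of the factors that assemble ribosomes is a known output of MYC.

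The cells came from human extra-embryoids (hEEs), aggregates that human pluripotent stem cells form in culture, with an embryonic-like core and a hypoblast-like outer layer. They were grown from ESI017, an established human embryonic stem cell line kept in an expanded potential medium with an added WNT inhibitor and ROCK inhibitor. A ROCK inhibitor was also in the medium at the start of aggregation. No transgene or knockout is named for these samples. Structures with a visible inner and outer compartment were collected at D4 and at D6 of culture, the wells of each day, from separate cultures of that line, were pooled, and each day was sequenced as 1 library of 3′ single-cell RNA-seq. The 7 bisulfite samples of the series were not analysed here.

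Cells within the study's limits on UMIs per cell and with at most 10% of UMIs from mitochondrial (MT-) genes were kept, 9151 at D4 and 10097 at D6. Gates were set on raw UMIs. The embryonic gate required at least 5 UMIs of POU5F1, at least 1 of SOX2 and at most 2 of FN1, and held 3716 (D4) and 5054 (D6) cells. The hypoblast gate required at least 3 UMIs of FN1, none of SOX2 and at most 5 of POU5F1, and held 4061 and 3567 cells. UMIs were summed per gate and day, and levels are given as counts per 1000000 UMIs of that group (CPM). A molecule is counted once at its 3′ end, so CPM needs no division by gene length. With 1 library a day there is no replicate and no test, and every interval below is a 95% interval for counting error only.

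The gates separated the summed embryonic and hypoblast markers that they did not use. The summed level of 7 hypoblast markers (APOA1, APOA2, GATA4, GATA6, SOX17, FOXA2, PDGFRA) was 49.2 CPM in the embryonic gate and 2466 in the hypoblast gate at D4, and 124 and 13803 at D6. Most of the hypoblast-gate sum at D6 was APOA1, so it says little of the other genes in it. The sum of 6 embryonic markers was 2272 against 608 at D4 and 2307 against 597 at D6. Of these 6, TDGF1 went the other way, at 186 against 228 CPM at D4 and 164 against 221 at D6. The 4 trophoblast markers summed to at most 0.105 CPM in any gate. Primitive streak or mesoderm markers (TBXT, MIXL1, MESP1, HAND1) were higher in the hypoblast gate, at 3.55 against 33.3 CPM at D4 and 6.94 against 104 at D6. Amnion markers were at 9.36 against 26.9 CPM at D4 and 22.8 against 7.16 at D6. Whether the hypoblast gate holds mesoderm-like or amnion-like cells was not tested.

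Ribosomal protein mRNA took a smaller share of the UMIs in hypoblast-gated cells, and the gap was wider at D6. The members together held 23.8% of UMIs in the embryonic gate and 19.97% in the hypoblast gate at D4, and 25.8% and 17.5% at D6. The summed log2 ratio, hypoblast gate over embryonic gate, was −0.25 at D4 and −0.56 at D6. Between days the sum was higher at D6 in the embryonic gate, by 0.12 on the log2 scale, and lower in the hypoblast gate, at −0.19. Over the whole libraries the share differed little, at 22.1% and 22.7% of the UMIs of kept cells.

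Single cells showed the same order. The median cell had 23.9% and 20.2% of its UMIs in ribosomal protein genes at D4, embryonic gate first, and 26.0% and 17.4% at D6. At D4, 4.83% of hypoblast-gated cells lay above the median of the embryonic gate, and at D6 0.364% did. Cells in neither gate had a median of 22.4% at D4 and 22.1% at D6.

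**Figure D1:**
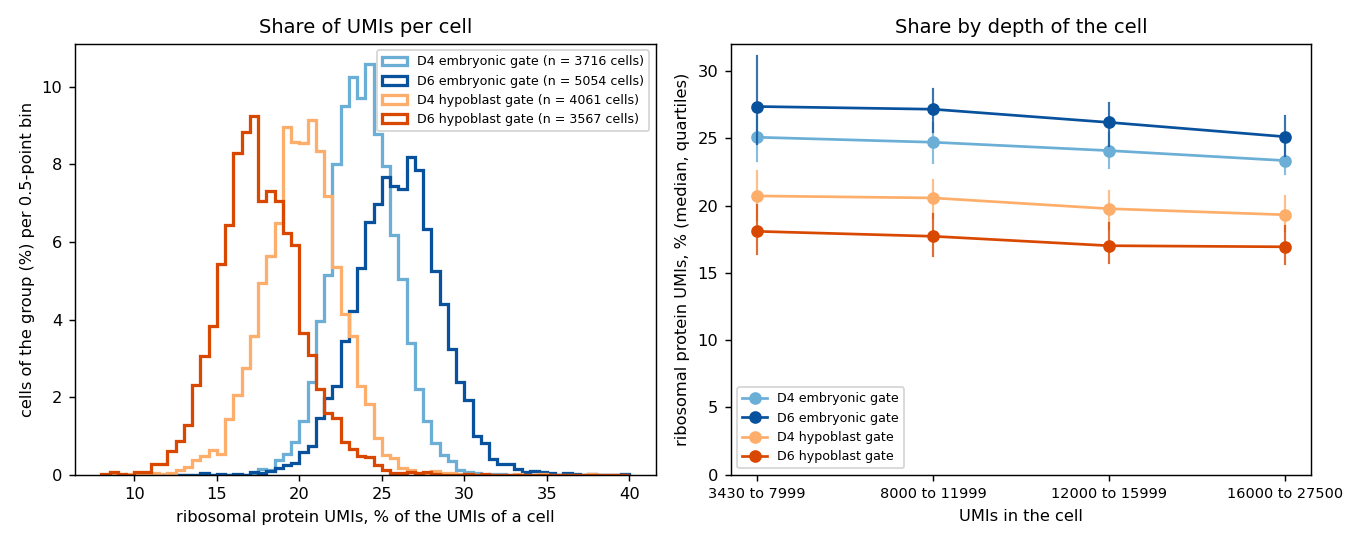
Share of ribosomal protein UMIs in single cells. Left, percent of cells of each gate and day per 0.5-point bin against the ribosomal protein share of a cell's UMIs. Right, median share with quartiles (vertical lines) by the number of UMIs in the cell. The D6 medians, 26.0% and 17.4%, lie outside the D4 medians on both sides, while the D4 and D6 distributions of each gate overlap. The order of the medians of the 4 groups is the same in every depth bin.

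Depth, mitochondrial share and proliferation also differed between cells, and their part in the result was not tested. The median cell held 15158 and 11012 UMIs at D4 and 14226 and 10902 at D6, embryonic gate first. The share was lower in deeper cells of every group. In the hypoblast gate at D6 its median ran from 18.1% in cells under 8000 UMIs to 16.9% in cells of 16000 UMIs or more, and in the embryonic gate from 27.4% to 25.1%. Among cells of 8000 to 16000 UMIs alone the summed log2 ratios were −0.27 at D4 and −0.59 at D6. Cells with at least 1 UMI of 8 G2M genes, after thinning to the lower limit on UMIs per cell, made up 97.5% and 84.3% of the gates at D4 and 96.5% and 65.7% at D6. In cells without such a UMI, the D6 log2 ratio was −0.58. MT- genes took a median of 3.82% and 3.75% at D4 and 1.93% and 2.10% at D6. In the embryonic gate at D6, cells with an MT- share over 5% had a median ribosomal share of 23.6%, against 27.0% in cells under 2%.

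The difference covered nearly the whole set. At D4, 78 of the 82 members with a mean level of at least 10 CPM in the 2 groups were lower in the hypoblast gate, where 49.9% of all 8584 such genes were. At D6, 80 of 81 were lower, against 52.0% of 8763 genes. The members' median log2 ratio was −0.23 at D4 and −0.53 at D6, beside 0.00 and −0.03 over all genes. The genes of at least 100 CPM that are not members had medians of −0.06 and −0.01, nearer those of all genes than those of the members. Some of them were lower too, such as EEF1A1 (−0.44 and −0.98) and NPM1 (−1.19 and −1.33). At D4, 247 of these 1528 genes were lower by a log2 ratio of at least 0.5 and 251 higher. At D6, 308 of 1550 were lower by that much and 344 higher.

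A log2 ratio of 0.5 in size was used as the fold for a call. At D4, 9 members were lower by at least that and 0 higher, while 16.8% of all genes were lower and 20.9% higher. So at D4 the share of members called, unlike their direction, was no larger than that of all genes. At D6, 47 of 81 members were lower by at least 0.5, against 23.1% of all genes, and 1 was higher, against 23.5%. A log2 ratio of at least 1 was reached by 2 members in the lower direction at D4 (RPL39L and RPL22L1) and by 3 at D6 (RPL22L1, RPL12 and RPSA), against 5.89% and 8.65% of all genes. In the higher direction 0 reached it, against 9.91% and 11.9%. At D6, RPS13 (−0.50) was the last member inside the fold and RPS15A (−0.46) the first outside it. Of the 9 genes called at D4, 7 were called at D6, which is 77.8% of the D4 list and 14.9% of the D6 list. Over all genes the shares were 87.3% and 62.4%. The other two were RPS26, at −0.30, and RPL39L, whose mean level at D6 was below the minimum.

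**Figure D2:**
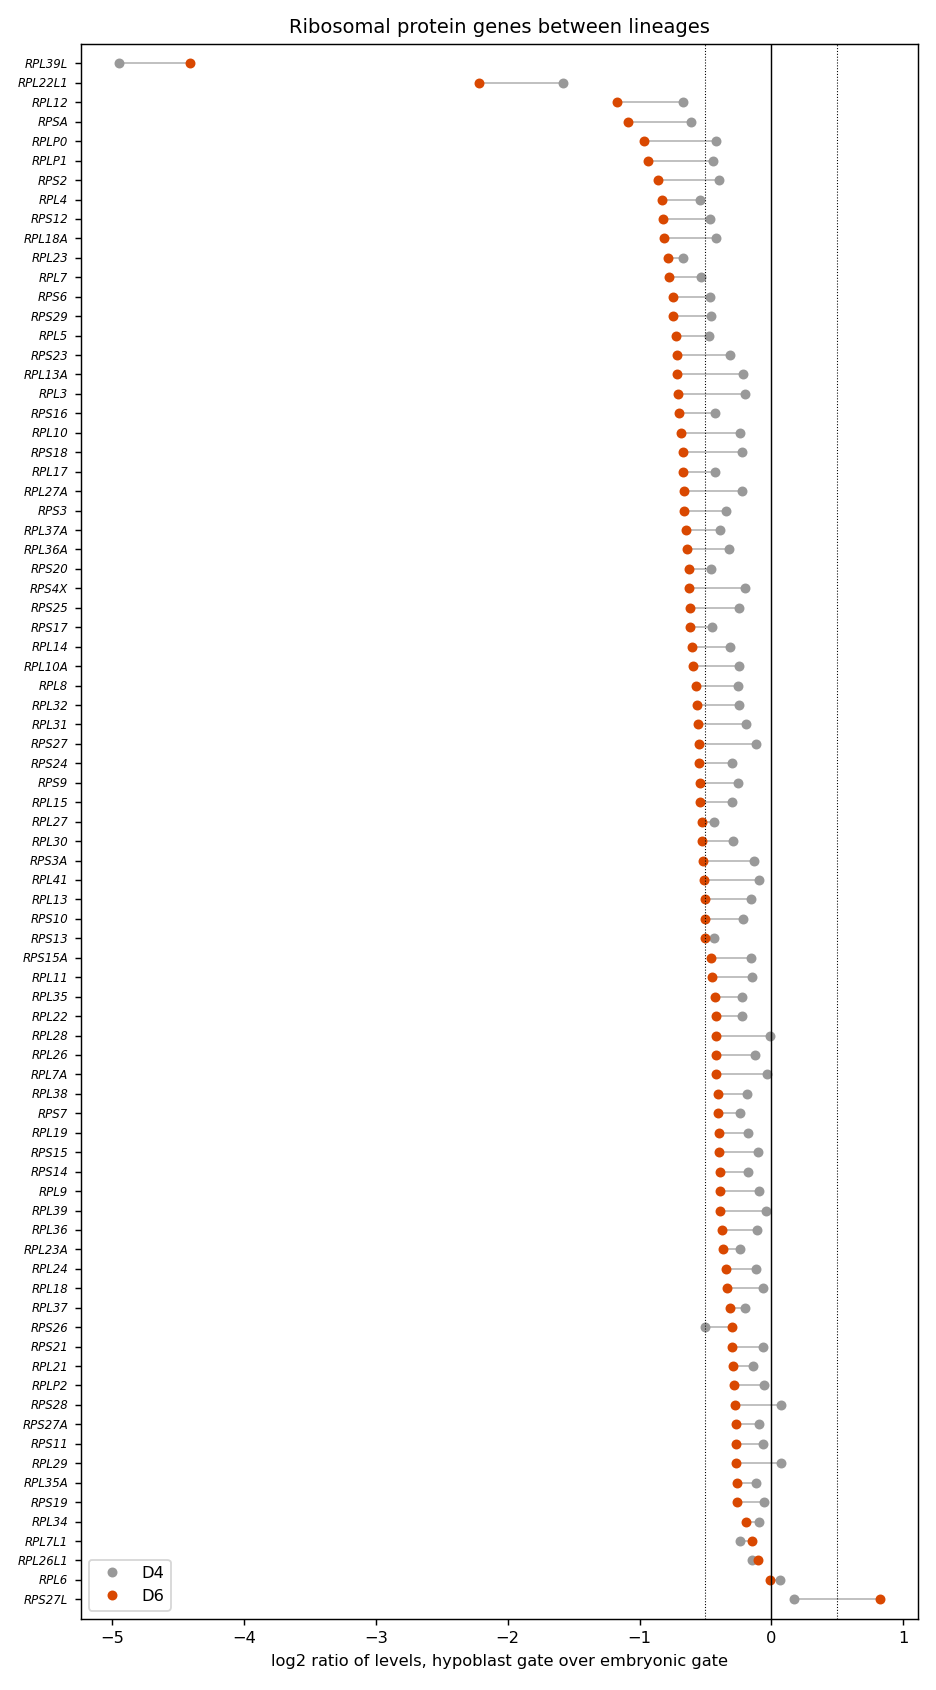
Log2 ratio of levels, hypoblast gate over embryonic gate, for the named ribosomal protein genes and most others that passed the level minimum on at least 1 day, at D4 (grey) and D6 (orange), ordered by D6. Dotted lines mark 0.5 in either direction. Most members form a band that lies further left at D6, with RPL39L and RPL22L1 far to the left. RPS27L alone lies right of 0 at D6, while at D4 RPL29, RPS28 and RPL6 lie slightly right of 0 as well.

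The 30-base windows around the annotated transcript starts show the pyrimidine tract that most members share, and are printed for genes that the results turn on. Sequences are from RefSeq, build GRCh38.p14, which belongs to the hg38 assembly named for these files, and 67 of the 84 members had an entry. Each is given 5′ to 3′ on the gene's strand, from 12 bases before the annotated first base to 18 bases from it on. Capitals mark the unbroken run of C and T that holds the first base.

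RPLP1: taggcgcgagagCCCCTTTCCTCagctgcc
RPL12: cgcgatttccggCCTCTCggctttcggctc
RPSA: cctgccgcctgTCTTTTCCgtgctacctgc
RPL22: ttcgctcaCCTCCCTTTCTaactccgctgc
RPL22L1: ggccgtagCTTCCTCTCTgctctcgcggcc
RPS27: tccgctttcgCTCCTTTCCggcggtgacga
RPS27L: ttgatgccgagcgcagatcgcttgcagctt

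These windows lie at chr15:69452806-69452835 (plus strand) for RPLP1, chr9:127451389-127451418 (minus) for RPL12 and chr3:39406708-39406737 (plus) for RPSA. Those of the paralogue pairs lie at chr1:6199578-6199607 (minus) for RPL22, chr3:170870178-170870207 (minus) for RPL22L1, chr1:153990750-153990779 (plus) for RPS27 and chr15:63157460-63157489 (minus) for RPS27L. Each of these 7 spans the end of the promoter and the start of the first exon. For 63 of the 67 members the first transcribed base of the window is the 5′ end of the annotated gene. For RPL6, RPL26L1, RPL27 and RPL32 it lies further in, and none of these 4 had the run described next. A run of at least 5 pyrimidines over the first base stood in 45 of the 67 members (67.2%) and in 9.80% of the 27305 genes with a window. Of the 5 paralogues with a window, RPL22L1 alone had one. Members with such a run had a median log2 ratio of −0.52 at D6 (n = 45) and the other members past the minimum −0.45 (n = 21), so the members without it in this window were lower too. These include the 4 whose window lies inside the gene. The annotated start may not be the one used in these cells, and the search looked at the gene's strand only.

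RPS2, a protein of the channel through which mRNA enters the small subunit, had the highest level of all members in all 4 groups. Its level was 8738 CPM in the embryonic gate and 6646 in the hypoblast gate at D4, and 9177 and 5047 at D6. The log2 ratio was −0.39 at D4 and −0.86 at D6. RPS18, RPLP1, RPL13 and RPL10 followed it in the embryonic gate on both days, at 5724, 5554, 5396 and 5250 CPM at D4. In the hypoblast gate at D6 the next were RPL13 (4122), RPS18 (4117), RPL7A (3706) and RPS27A (3542). RPLP1 was outside the leading 5 of that gate on both days. RPS27A, which encodes ubiquitin fused to a ribosomal protein, had log2 ratios of only −0.09 and −0.27, and RPL7A −0.03 and −0.42.

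In the small subunit, 30 of 32 members were lower in the hypoblast gate at D4 and 31 of 32 at D6, with medians of −0.24 and −0.55. RPSA, which sits by the mRNA exit and is also known as a laminin receptor precursor, differed most. RPSA had 3377 CPM in the embryonic gate and 2208 in the hypoblast gate at D4, and 3577 and 1682 at D6. Its log2 ratio was −0.61 (−0.62 to −0.60) at D4 and −1.09 (−1.10 to −1.08) at D6.

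Proteins of the mRNA path did not move as a block. RPS3 at the entry and RPS23 at the decoding centre had log2 ratios of −0.66 and −0.71 at D6. RPS28, which lies at the exit, had 2239 and 2350 CPM at D4 and 2697 and 2226 at D6, ratios of 0.07 and −0.28. RPS26, its neighbour there, had 1123 and 791 CPM at D4 and 957 and 776 at D6. It was one of the few members whose gap narrowed, from −0.50 to −0.30, and its level in the embryonic gate was lower at D6 than at D4. RPS6, the main substrate of the S6 kinases, was at −0.46 and −0.75.

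In the large subunit, 48 of 50 members were lower in the hypoblast gate at D4 and all 49 past the minimum at D6, with medians of −0.22 and −0.51. The ratio of RPL to RPS UMIs was similar across groups, at 1.36 and 1.39 at D4 and 1.35 and 1.38 at D6, embryonic gate first.

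The P stalk recruits and activates the elongation factors, and 4 members make it up or hold it to the ribosome. RPL12, at the stalk's base, had 3624 and 2282 CPM at D4 and 4146 and 1842 at D6. Its log2 ratios of −0.67 (−0.68 to −0.66) and −1.17 (−1.18 to −1.16) were the lowest of all members other than the paralogues at D6. RPLP0, the stalk's scaffold, had 3198 and 2395 at D4 and 3601 and 1844 at D6, ratios of −0.42 and −0.97. RPLP1 had 5554 and 4080 at D4 and 6155 and 3222 at D6, ratios of −0.45 and −0.93. RPLP2, with which RPLP1 forms dimers, stood apart from these. Its levels were 1720 and 1650 at D4 and 1773 and 1457 at D6, ratios of −0.06 and −0.28.

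RPL5 and RPL11 bind the 5S rRNA and, outside the ribosome, the ubiquitin ligase MDM2. RPL5 stood at −0.47 and −0.72 and RPL11 at −0.15 and −0.45, so the pair was not lower to the same extent. The 7 members around the exit of the nascent chain (RPL17, RPL19, RPL23A, RPL26, RPL31, RPL35, RPL39) were all lower on both days, with medians of −0.19 and −0.42 and RPL17 lowest at −0.43 and −0.67. RPL23, at the interface of the subunits, was among the lowest at D4, with 2585 and 1624 CPM and a ratio of −0.67, and moved little further by D6, to −0.78. RPL4, which lines the exit tunnel, was at −0.54 and −0.83, and RPL7 at −0.54 and −0.78. RPL6 did not follow the set. Its 4 levels were 2721, 2843, 2709 and 2693 CPM (D4 embryonic, D4 hypoblast, D6 embryonic, D6 hypoblast), with log2 ratios of 0.06 (0.05 to 0.07) and −0.01 (−0.02 to 0.00). RPL29 was at 0.07 at D4 and −0.27 at D6, and RPL28 at −0.01 and −0.42.

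Relative to the summed ribosomal protein level, which takes out the shift that the set has in common, few members passed the fold. Dividing the members by their own sum places them near 0 by construction, so a small count says little by itself. At D6 the members lower by at least 0.5 on that scale were RPL22L1 (−1.65), RPL12 (−0.61) and RPSA (−0.53), and those higher were RPS27L (1.39) and RPL6 (0.55). At D4 only RPL39L and RPL22L1 were lower by that much and 0 were higher. On the same scale, 835 of 8584 genes were lower and 2797 higher at D4, and 688 of 8763 lower and 4548 higher at D6.

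The paralogues held the widest differences between lineages. These are second copies of a ribosomal protein gene that some tissues express beside, or in place of, the parent. RPL22L1, the paralogue of RPL22 (RPL22L1 lies at chr3:170864875-170870195), had 892 CPM in the embryonic gate and 298 in the hypoblast gate at D4, and 821 and 177 at D6. The ratios were −1.58 (−1.61 to −1.56) and −2.21 (−2.25 to −2.18). The parent RPL22 had 1375 and 1180 at D4 and 1515 and 1130 at D6, ratios of −0.22 and −0.42. RPL22L1 therefore stood at 64.9% of its parent's level in the embryonic gate at D4 and 54.2% at D6, but at 25.2% and 15.7% in the hypoblast gate. After thinning every cell to the same lower limit of UMIs, 93.8% and 60.4% of cells had a UMI of RPL22L1 at D4, and 91.4% and 41.5% at D6. Without thinning the shares were 99.9%, 90.03%, 99.8% and 77.4% in the same order.

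RPL39L, the paralogue of X-linked RPL39 and best known from testis, was nearly confined to the embryonic gate. It had 20.3 CPM there and 0.648 in the hypoblast gate at D4, a log2 ratio of −4.95 (−5.53 to −4.46), and 14.97 and 0.694 at D6, a ratio of −4.41 (−5.02 to −3.90). The UMIs behind these values were 1174, 31, 1120 and 29. A UMI was found in 24.7% and 0.689% of cells at D4 and in 18.8% and 0.785% at D6, and after thinning in 6.92%, 0.222%, 4.85% and 0.252%. The hypoblast-gate level was 3.19% of the embryonic one at D4 and 4.64% at D6. For UTF1, a pluripotency gene that marked the embryonic gate, the same figures were 1.67% and 3.88%, and for ESRG 1.89% and 1.66%. For DNMT3B they were 16.5% and 17.1%, and for L1TD1 25.2% and 26.6%. Whether the few UMIs of RPL39L in the hypoblast gate are expression was not tested. The parent RPL39 differed little at D4, with 1865 and 1817 CPM (−0.04), and was at 2177 and 1664 at D6 (−0.39).

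RPS27L, a paralogue of RPS27, went the other way. RPS27L had 187 CPM in the embryonic gate and 211 in the hypoblast gate at D4, and 180 and 319 at D6. Its log2 ratios were 0.17 (0.13 to 0.21) and 0.83 (0.79 to 0.86), while RPS27 was at −0.11 and −0.55. It stood at 7.61% of its parent in the embryonic gate at D6 and at 19.7% in the hypoblast gate. After thinning, 44.8% and 45.3% of cells had a UMI at D4 and 44.8% and 58.2% at D6.

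**Figure D3:**
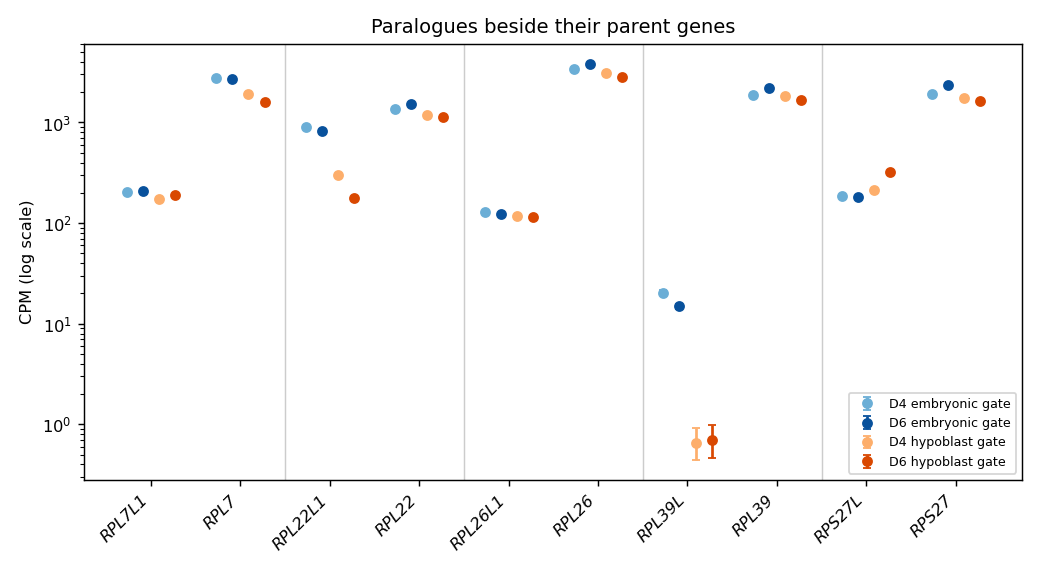
Levels of 5 paralogues, each beside its parent gene on its right, in CPM on a log scale, for the 2 gates at D4 and D6. Bars are 95% counting intervals, smaller than the points except for RPL39L. RPL22L1 and RPL39L are low in the hypoblast gate and RPS27L is high there at D6, while RPL7L1 and RPL26L1 stay level.

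The other paralogues differed little or were barely detected. RPL7L1 was at −0.24 and −0.14 and RPL26L1 at −0.15 and −0.10, both close to or above their parents RPL7 (−0.54, −0.78) and RPL26 (−0.13, −0.42). RPL3L, known from striated muscle, had 22, 6, 43 and 9 UMIs in the 4 groups, against levels of RPL3 of 4616, 4018, 5124 and 3142 CPM. RPL10L, the retrocopy of X-linked RPL10, had 62 UMIs in 28 cells of the hypoblast gate at D4, up to 8 in 1 cell. It had 13 UMIs in 5 cells of the embryonic gate at D4 and 3 UMIs in 3 cells at D6. In the hypoblast gate at D6 it had 0 UMIs in 3567 cells, which allows a share of cells with a UMI of up to 0.0841%. Reads of a retrocopy and of its parent cannot always be told apart.

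The 4 X-linked members had median log2 ratios of −0.22 at D4 and −0.63 at D6, beside −0.23 and −0.53 for all members. RPS4X was at −0.20 and −0.62, RPL10 at −0.24 and −0.68, RPL36A at −0.32 and −0.64 and RPL39 at −0.04 and −0.39. RPS10 was low among the small subunit genes that are not paralogues, at 177, 153, 188 and 133 CPM. The annotation also holds a readthrough gene, RPS10-NUDT3, that overlaps it, with at most 2.16 CPM itself. Reads that fit both genes are not counted for either in 3′ counting by unique gene, so the level of RPS10 is uncertain.

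Between days the 2 gates went opposite ways. In the embryonic gate, 74 of 82 members were higher at D6, where 56.1% of all 8444 genes were, with a median of 0.12 against 0.03. None passed the fold in either direction, where 2.32% of all genes were higher and 1.34% lower by it. In the hypoblast gate, 74 of 81 were lower at D6, where 50.4% of all 8544 genes were, with a median of −0.16 against −0.00. Past the fold were RPS27L, higher at 0.59, and RPL22L1, lower at −0.75, where 7.07% of all genes were higher and 4.79% lower. Of the 81 members past the minimum in both gates, 68 (84.0%) were higher at D6 in the embryonic gate and lower in the hypoblast gate, a pattern found in 23.6% of 7630 genes. No member reached a log2 ratio of 1 over days, against 0.201% of genes higher and 0.261% lower in the embryonic gate and 2.22% and 0.866% in the hypoblast gate. Day and library cannot be told apart here.

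Single members differed from that course. Among the largest values in the embryonic gate were those of RPL31 (0.32), RPS27 (0.31), RPS28 (0.27) and RPS25 (0.27). The lowest were RPL39L (−0.44), RPS26 (−0.23) and RPL22L1 (−0.12). In the hypoblast gate RPL22L1 was followed by RPS4X (−0.44), RPL27A (−0.41), RPS2 (−0.40) and RPSA (−0.39). RPL7L1 (0.13), RPL34 (0.08), RPS13 (0.08) and RPL37 (0.02) were, beside RPS27L, the highest there. As a change in the lineage ratio from D4 to D6, the median member was at −0.29. Over all genes the median lineage ratio was 0.00 at D4 and −0.03 at D6. By 0.5 or more, 4 members were lower (RPL22L1, RPLP0, RPL3 and RPL12) and 1 higher (RPS27L), shares below or near the 6.04% and 5.68% of all genes.

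**Figure D4:**
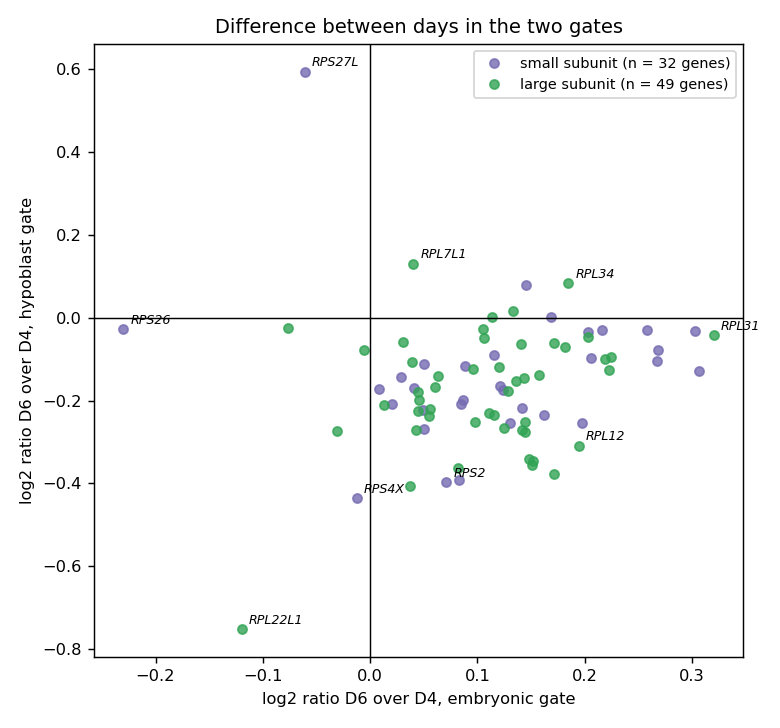
Log2 ratio of levels, D6 over D4, in the embryonic gate (x axis) and the hypoblast gate (y axis), 1 point per ribosomal protein gene, purple for the small and green for the large subunit. Most points lie in the lower right part, higher at D6 in the embryonic gate and lower in the hypoblast gate, with RPS27L at 0.59 and RPL22L1 at −0.75 in the hypoblast gate.

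Smaller groups of cells lay both inside and outside the range between the 2 gates. Within the hypoblast gate at D4, the 427 cells with at least 3 UMIs of CER1, which marks the anterior hypoblast, had 19.0% of their UMIs in ribosomal protein genes, against 20.1% in the rest. At D6 the 88 such cells and the rest were both at 17.5%. At D4 the 1290 cells with at least 20 UMIs of APOA1 had 19.5%, against 20.2%. At D6 the 316 hypoblast-gated cells below 20 APOA1 UMIs had 19.0%, against 17.4% in the 3251 others. These cuts are on raw UMIs, and cells above them were deeper. Their median was 12283 UMIs against 10892.5 for CER1 at D4. For APOA1 it was 12448.5 against 10495 at D4 and 11054 against 9107 at D6. The part of depth in these differences was not tested. Of cells with at least 2 UMIs of the amnion gene TFAP2A and at most 2 of FN1, 382 at D6 had 26.5%. The embryonic gate had 25.8% at D6. At D4, 83 such cells had 24.2%, against 23.8% in that gate. Of cells with at least 2 UMIs of HAND1 and none of SOX2, 103 at D6 had 21.0%, between the gates. The TFAP2A and HAND1 groups were drawn from all kept cells, so they can share cells with the gates.

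Genes that build ribosomes differed more between lineages than the genes of the ribosome itself. Of 36 assembly genes, 27 were lower by at least 0.5 in the hypoblast gate at D4 and 27 at D6, 26 of them on both days, with medians of −0.76 and −0.80. Over all genes 16.8% and 23.1% were lower by the fold. Of those lists, 87.3% at D4 and 62.4% at D6 were lower on both days, against 96.3% of each list for the assembly genes. NPM1, a nucleolar chaperone, had 3894 and 1705 CPM at D4 and 3887 and 1543 at D6, ratios of −1.19 and −1.33. POLR1B, a subunit of the polymerase that makes rRNA, was lowest, at −1.66 and −1.75. NOLC1 (−1.58) and RRS1 (−1.45) followed it at D6, and RRP12 and BOP1, the latter in the maturation of large subunit rRNA, had −1.60 and −1.63 at D4. SBDS, which releases the factor EIF6 from new large subunits, went the other way at D6, with 27.5 and 52.2 CPM (0.92), and EIF6 was at 0.32. In this list the gap was already there at D4, whereas that of the ribosomal proteins widened from a median of −0.23 to −0.53.

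Of 28 translation factors, 8 were lower by the fold at D4 and 12 at D6, and 0 were higher by it on either day. The medians were −0.33 and −0.38. Over all genes 16.8% and 23.1% were lower by the fold and 20.9% and 23.5% higher. EEF1A1, which brings aminoacyl-tRNA to the ribosome and whose mRNA is a TOP mRNA too, had 6354 and 4669 CPM at D4 and 7347 and 3725 at D6, ratios of −0.44 and −0.98. EEF2 was at −0.67 and −1.05 and PABPC1, the poly(A)-binding protein, at −0.88 and −1.14. EEF1A2 (−1.74) was the lowest at D6, and EIF2S2 (0.27) and EIF4G2 (0.11) the highest. TPT1 was the highest at D4, with 2678 and 3178 CPM (0.25), and was at −0.03 at D6. At any size, 3 of the 28 were above 0 at D4 and 5 at D6. Of 11 hosts of small nucleolar RNAs, 6 and 9 were lower by the fold, with medians of −0.69 and −0.84. SNHG5 was lowest, at −1.39 and −1.76, and GAS5, another TOP transcript, went from −0.38 to −0.84.

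The ribosomal proteins of mitochondria, a separate set of nuclear genes, did not follow the cytosolic ones in time. Of 77 past the minimum, 15 were lower by the fold at D4 and 14 at D6, with medians of −0.28 and −0.16, and 1 and 3 were higher. Over all genes 16.8% and 23.1% were lower and 20.9% and 23.5% higher. The share of lower calls was therefore near that of all genes, while that of higher calls was smaller. At any size, 62 of the 77 were lower at D4 and 55 at D6, against 49.9% and 52.0% of all genes. MRPS6 was higher in the hypoblast gate, with 156 and 360 CPM at D4 and 139 and 347 at D6 (1.21 and 1.32), and MRPS27 was lowest at D6 (−1.24). Ribosomal genes that the symbols do not catch gave values as follows. RACK1, a scaffold on the small subunit, was at −0.37 and −0.60, FAU at −0.05 and −0.26 and RPL36AL at −0.27 and −0.15.

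Among 15 regulators of growth, MYC had 33.8 CPM in the embryonic gate and 3.30 in the hypoblast gate at D4, and 44.1 and 4.38 at D6, ratios of −3.35 and −3.33. MYCN was at −1.24 and −1.32. MYCL, with 10.2 and 11.8 CPM at D4, was at 0.21 there and at −0.40 at D6. LARP1, which binds TOP mRNAs, was at −0.88 and −0.69. Of the 13 past the minimum, 5 were lower by the fold on each day. MDM2 alone was higher by it, at D6, with 38.3 and 56.1 CPM (0.55). At any size, 3 were above 0 at D4 and 2 at D6. Over all genes 16.8% and 23.1% were lower by the fold at D4 and D6, and 20.9% and 23.5% higher.

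**Figure D5:**
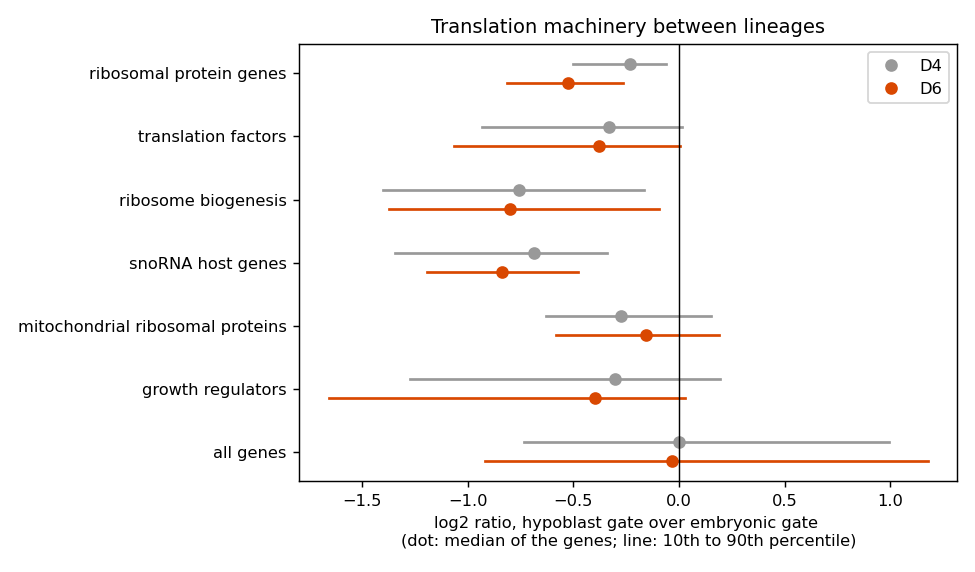
Log2 ratio, hypoblast gate over embryonic gate, for the ribosomal protein genes and 5 related lists at D4 (grey) and D6 (orange), with all genes past the level minimum at the bottom. Points are medians over genes and lines run from the 10th to the 90th percentile. The assembly genes (−0.76 and −0.80 at the median) and the small nucleolar RNA hosts (−0.69 and −0.84) are lowest on both days, and the ribosomal protein genes move from −0.23 to −0.53.

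CPM is a share, so a few very abundant genes lower all others. APOA1 alone held 11926 CPM in the hypoblast gate at D6, and without APOA1, APOA2, APOE, FN1 and MT- genes in the total the D6 summed ratio was −0.53. Scaled to UMIs outside ribosomal protein and MT- genes, which moves the median of all genes to −0.20 at D6, the summed ratio was −0.72 and the median member stood at −0.70.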

How the data were processed

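The authors deposited UMI counts per gene and cell for 2 libraries of 10x 3′ single-cell RNA-seq, made with Cell Ranger 6.0.1 per the file headers and aligned to hg38 per the labels. The counts are not normalized. From them, cells were filtered (3430 to 27500 UMIs, MT- share of at most 10%) and gated as described, and UMIs were summed per gate and day and divided by the group's total, times 1000000. Doublets were not called. The upper UMI limit applies, and cells with both SOX2 and at least 3 UMIs of FN1 entered neither gate. Levels have exact Poisson intervals. Log2 ratios were taken with 0.5 counts added per group, with exact binomial intervals of the counts. The libraries held 1.52e+08 and 1.50e+08 UMIs, and 27 barcodes were kept in both. Named genes were drawn from the 5 highest members per group and the 5 highest and 5 lowest ratios per comparison. Further sources were all members past the fold where there were 30 or fewer, paralogues, the P stalk, 5S and X-linked members. Members without a UMI and 3 extremes per other list were sources too. Not every gene from these sources is named. Others named beside them were chosen after their values were seen. The members and lists were chosen with earlier results of these data known. Alternatives changed the scaling, gates, cell filters, level minimum and fold. The functions were tested on simulated counts. Python 3.11.15, numpy 2.4.6, pandas 2.3.3 and scipy 1.17.1 were used. A GRCh37 genome was not used, since the build differs. Values of some genes are not reported here.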

Additional observations from a re-analysis of the deposited data

Results flagged for a closer look

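The summed ribosomal protein level went opposite ways between days in the 2 gates, with a D6 over D4 log2 ratio of 0.12 in the embryonic gate and −0.19 in the hypoblast gate. It was looked at again because the signs were opposite. With 1 library per day the difference between the gates was not tested.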

How the results depend on the processing

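No alternative that changed the cells, their weights, the gates or the totals turned the sign of a summed log2 ratio. The level minimum, the fold and the centring of single genes do not enter that sum, so they could not change it. The order below is hypoblast over embryonic gate at D4, at D6, then D6 over D4 in the embryonic and the hypoblast gate. Members and genes counted below as higher or lower are those past the fold of 0.5, unless another fold is given. Scaled to UMIs outside ribosomal protein and MT- genes, the sums were −0.33, −0.72, 0.13 and −0.27, with 20 of 82 members lower at D4 and 2 of 81 lower over days in the hypoblast gate. With that scaling, 2006 of 9521 genes were lower at D4 and 630 of 9297 over days in the hypoblast gate. Stricter gates gave −0.28, −0.57, 0.11 and −0.18, gates set on thinned counts −0.26, −0.56, 0.11 and −0.18, and cells of 8000 to 16000 UMIs −0.27, −0.59, 0.12 and −0.20. Equal weight per cell gave −0.25 at D4 and 0.12 in the embryonic gate. An MT- share of at most 5% gave −0.25, −0.57 and, in the hypoblast gate over days, −0.21, and no cell filter −0.56 at D6 and −0.20. Without a level minimum, 1 member was higher at D4, 1 higher and 1 lower over days in the embryonic gate, and 2 and 2 in the hypoblast gate. Among all genes in that setting, 8011 of 27393 were higher at D4. Over days, 6211 were higher and 3387 lower of 27472 in the embryonic gate, and 5425 and 6011 of 26625 in the hypoblast gate. At a log2 ratio of 1, 2 members were lower at D4, 3 lower and 0 higher at D6, and 0 passed over days in the hypoblast gate. The shares of all genes were 5.89% lower at D4, and 8.65% lower and 11.9% higher at D6. Over days in the hypoblast gate they were 2.22% higher and 0.866% lower. Alternatives added after seeing the data were 4. Cells without a G2M UMI, only 92 in the embryonic gate at D4, gave −0.58 at D6, 0.14 and −0.19 over days, with 1 member lower in the embryonic gate and 0 higher in the hypoblast gate, where RPS27L was at 0.41. In those cells 648 of 8303 genes were lower over days in the embryonic gate and 679 of 8427 higher in the hypoblast gate. Relative to the summed ribosomal protein level, 2 members were lower at D4, 3 lower and 2 higher at D6, and 1 lower over days in the embryonic gate. On that scale 835 of 8584 genes were lower at D4, and 688 of 8763 lower and 4548 higher at D6. Over days in the embryonic gate, 225 of 8444 genes were lower. Leaving APOA1, APOA2, APOE, FN1 and MT- genes out of the totals gave −0.24, −0.53 and, in the embryonic gate, 0.10. Leaving out cells of shared barcodes moved no sum beyond its counting interval. The cause of these movements was not tested. No paired analysis was possible because each day is a single library and no value comes from a test of replicates, and no replicate could be left out. Depth limits RPL3L, RPL10L and RPL39L, where 3 UMIs correspond to 0.0519 CPM in the embryonic gate at D4.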
